A study of Mus musculus with 4 samples.

Results

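The genes described here are the 10 ligand and receptor genes of the platelet-derived growth factor (PDGF) and fibroblast growth factor (FGF) systems that were picked by symbol, namely Pdgfa, Pdgfb, Pdgfc, Pdgfd, Pdgfra, Pdgfrb, Fgf2, Fgf7, Fgfr1 and Fgfr2. All 10 were found among the 22488 genes listed in each library, and 9 of them, all but Pdgfb, were among the 11290 genes whose mean FPKM reached 1. FPKM is a level per length of the gene and per number of reads assigned to genes, so genes can be set side by side within a library. Between libraries it does not adjust for differences in the mix of RNA, and other scalings are among the alternative fits. RNA sequencing was carried out on cultured vascular smooth muscle cells (VSMCs) from C57BL/6 mice at passages 4 to 10. Strain, cell type and this stated range of passages are the same in both groups. The passage of each library is not given, so whether passage differed between the groups cannot be told. The controls were transfected with a scramble siRNA, labelled as the control treatment, and the other cells with circEsyt2 siRNA, which targets a circular RNA that takes its name from Esyt2, each for 48 hours and with 2 libraries per group. No untransfected cells are among the samples, and the labels do not tell whether replicates came from separate cultures, so the p-values rest on the spread between these libraries, which may be technical. The level of the circle itself was not analysed here. The Esyt2 row, which counts exons of the whole gene, measured 53.4 and 50.6 FPKM with scramble siRNA against 40.6 and 48.7 with circEsyt2 siRNA (limma adjusted p = 0.318).

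PDGF ligands are dimers of A, B, C or D chains that bind and join the receptor tyrosine kinases PDGFR-alpha and PDGFR-beta. The A and C chains act mainly through the alpha receptor, and the D chain mainly through the beta receptor, which the B chain also binds strongly. In the artery wall these factors are known as mitogens and chemoattractants that move smooth muscle cells from a contractile to a dividing, migratory state, and PDGFR-beta is a standard marker of mural cells. FGFs bind FGF receptors together with heparan sulphate, FGF2 being a mitogen of smooth muscle and FGF7 a mesenchymal factor that signals to a splice form of FGFR2 found on epithelial cells.

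With circEsyt2 siRNA, the mRNAs of both PDGF receptors and of the ligand Pdgfd were lower and that of Fgfr1 was higher. Pdgfra stood at 36.5% of its scramble mean, Pdgfrb at 47.5% and Pdgfd at 54.3%, while Fgfr1 stood at 175%. In limma with Benjamini-Hochberg adjustment over all tested genes, 3 of the 9 tested members were lower and 1 was higher, at an adjusted p under 0.05. Of all 11290 tested genes, 7.26% were lower, 5.47% higher and 12.7% called in either direction by the same test. The other 5 tested members, Pdgfa, Pdgfc, Fgf2, Fgf7 and Fgfr2, did not pass it. The median log2 fold change of the 9 members was -0.44, against 0.00 over all tested genes, and changes are given on the log2(FPKM + 1) scale, which understates those of low genes. All 4 calls were lost when either scramble library was left out, fits in which limma called 0 genes at the adjusted threshold (1959 and 2231 genes at an unadjusted p under 0.05). In bulk RNA, fewer cells carrying a transcript and less of it per cell cannot be told apart.

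Markers of the cell types a culture could hold differed between the libraries, and circEsyt2 siRNA library 1 stood apart by its hepatocyte markers. The smooth muscle markers summed to 2178 and 2251 FPKM with scramble siRNA against 1279 and 1166 with circEsyt2 siRNA, and 8 of 10 tested were lower and 0 higher. Cnn1, the calponin gene, measured 62.6 and 58.4 against 19.8 and 21.9 FPKM, and Actg2, an actin gene of smooth muscle, measured 54.1 and 46.5 against 18.9 and 19.7 FPKM. Acta2, the smooth muscle actin gene of the artery wall, measured 1421 and 1446 against 883 and 829 FPKM. Fibroblast markers other than Pdgfra were abundant and summed to 718 and 646 against 499 and 554 FPKM, with 2 of 8 tested, Thy1 and Mfap5, lower and 0 higher, and 0 of 10 at 0 in all libraries. Pericyte markers other than Pdgfrb summed to 41.1 and 49.2 against 88.4 and 37.7 FPKM, with 0 of 5 tested called, and the high value is that of Vtn, 56.3 FPKM in circEsyt2 siRNA library 1, a gene that hepatocytes also express. Endothelial markers summed to 4.42 to 6.09 FPKM over the 4 libraries, with Cldn5 at 0 throughout, and 1 was tested and not called. Hepatocyte markers summed to 13.4 and 4.24 FPKM with scramble siRNA against 3272 and 101 with circEsyt2 siRNA, which is 0.692% of all reads in circEsyt2 siRNA library 1. Among them Alb, the albumin gene, measured 9.16 and 1.66 against 2082 and 65.7 FPKM, and Apoa1, an apolipoprotein gene, 0 and 0.197 against 228 and 6.73 FPKM, and 0 of the 12 passed the test. Macrophage markers summed to 4.45 and 7.84 against 40.3 and 6.13 FPKM, with 0 of 4 tested called. Epithelial markers summed to 10.8 and 15.0 FPKM with scramble siRNA against 21.5 and 13.5 with circEsyt2 siRNA, with 0 of 3 tested called. Without circEsyt2 siRNA library 1 the log2 fold changes of Pdgfra, Pdgfrb, Pdgfd and Fgfr1 were -1.29, -0.98, -0.77 and 0.94, and those of Pdgfra, Pdgfrb and Fgfr1 still passed the test. What part changes in the mix of smooth muscle and fibroblast-like cells have in the values of Pdgfra and Pdgfrb was not tested.

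Of the called members, Pdgfra and Pdgfd had promoter windows that were searched here, from the RefSeq table of GRCm38.p6. The promoter of Pdgfc, a ligand of the alpha receptor that did not pass the test, was chosen after its rarer motif was seen. These promoters read as follows 5′ to 3′ over the 250 bases before the RefSeq start. Capitals mark the motifs that were found.
Pdgfra: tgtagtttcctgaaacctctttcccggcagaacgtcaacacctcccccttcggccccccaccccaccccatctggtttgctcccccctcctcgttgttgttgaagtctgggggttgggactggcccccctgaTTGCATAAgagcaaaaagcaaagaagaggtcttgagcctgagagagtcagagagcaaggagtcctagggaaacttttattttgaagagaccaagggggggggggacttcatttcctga
Pdgfd: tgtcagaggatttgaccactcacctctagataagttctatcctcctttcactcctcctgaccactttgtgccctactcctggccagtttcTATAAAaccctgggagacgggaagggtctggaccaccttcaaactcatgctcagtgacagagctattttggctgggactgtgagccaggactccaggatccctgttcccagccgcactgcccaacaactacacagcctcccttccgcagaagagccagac
Pdgfc: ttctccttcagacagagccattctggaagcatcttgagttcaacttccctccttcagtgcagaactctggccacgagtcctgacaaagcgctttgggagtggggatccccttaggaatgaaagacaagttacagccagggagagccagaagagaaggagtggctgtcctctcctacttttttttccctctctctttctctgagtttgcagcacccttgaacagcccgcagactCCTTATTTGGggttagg
These windows lie at chr5:75152001-75152250 for Pdgfra, chr9:6168236-6168485 for Pdgfd and chr3:81036166-81036415 for Pdgfc, all on the plus strand of GRCm38.p6. Motifs were searched as letters on both strands, with overlaps between motifs allowed. They were the GC box GGGCGG, the CCAAT box CCAAT, the TATA box TATAAA, AP-1 as TGANTCA, the cyclic AMP response element as TGACGTCA, the C/EBP-ATF composite element as TGATGNAAT, C/EBP as TTGCNNAA and the CArG box by its usual definition. The Pdgfra window held 1 match, TTGCATAA to the C/EBP letters, at 118 to 111 bases before the start, and 9.56% of all 32851 windows of this length held such a match. The Pdgfd window held 1 TATAAA, at 160 to 155 bases before the start, which 12.4% of all windows held. The Pdgfc window held 1 CArG box, CCTTATTTGG, the motif that serum response factor binds in smooth muscle genes, at 17 to 8 bases before the start, against 1.47% of all windows. Windows of 7 of the 10 members were searched. Pdgfrb was left out of the search, and no window was found for Pdgfb and Fgfr1. None of the 7 searched members held the AP-1, cyclic AMP response or composite letters, which 6.75%, 1.55% and 0.816% of all windows held. Among the other members, the windows of Fgf2 and Pdgfa held the GC box, which 32.74% of all windows held. That of Fgf7 held the CCAAT box, against 33.85% of all windows. These matches describe letters and were not tested as binding sites.

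Pdgfra encodes PDGFR-alpha and lies at chr5:75152292-75198215 on the plus strand of GRCm38. It measured 20.5 and 19.4 FPKM in scramble libraries 1 and 2 and 6.995 and 7.56 in circEsyt2 siRNA libraries 1 and 2. Both circEsyt2 siRNA libraries lay far below both scramble libraries, and the replicates of each group were close to each other. The values rest on 516 and 800 reads with scramble siRNA against 264 and 237 with circEsyt2 siRNA. Its mean was 2.74-fold lower, and the log2 fold change was -1.34 (SE 0.14, 95% interval -1.69 to -0.99, limma adjusted p = 0.00535). Relative to the scramble mean the difference was -1.39 in circEsyt2 siRNA library 1 and -1.29 in library 2. Among the 4 calls, this was the call that held in the 12 alternative fits other than those without a scramble library.

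Pdgfrb encodes PDGFR-beta and lies at chr18:61045150-61085061 on the plus strand. It measured 56.0 and 44.5 FPKM with scramble siRNA against 22.8 and 24.9 with circEsyt2 siRNA. The groups did not overlap, although the scramble libraries differed from each other by more than the circEsyt2 siRNA libraries did. Its mean was 2.11-fold lower, with a log2 fold change of -1.04 (SE 0.15, 95% interval -1.41 to -0.66, limma adjusted p = 0.0131). The call was also lost without circEsyt2 siRNA library 2 (adjusted p = 0.0705) and with eBayes without a trend (adjusted p = 0.0545), at log2 fold changes of -1.09 and -1.04. The intervals of Pdgfra and Pdgfrb overlap, and the Pdgfrb to Pdgfra ratio of FPKM was 2.74 and 2.29 with scramble siRNA against 3.26 and 3.29 with circEsyt2 siRNA. Pdgfrb was thus the more abundant PDGF receptor mRNA in each of the 4 libraries. Summed over both receptors, the level was 76.5 and 63.9 FPKM with scramble siRNA against 29.8 and 32.4 with circEsyt2 siRNA.

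**Figure D1:**
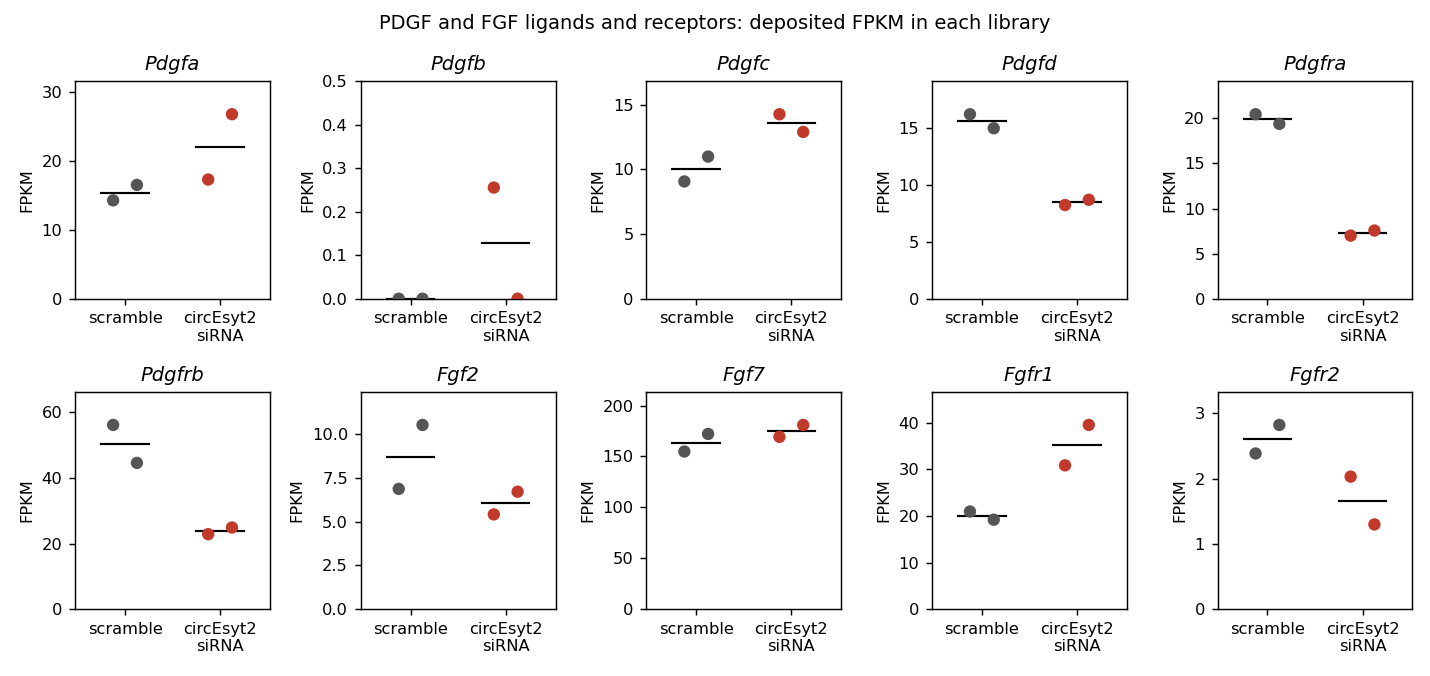
Deposited FPKM (vertical axes, linear, from 0) of the 10 genes in the 2 scramble libraries (grey) and the 2 circEsyt2 siRNA libraries (red), with replicate 1 on the left of each pair and a bar at each group's mean. Pdgfra falls from 20.5 and 19.4 to 6.995 and 7.56 and Fgfr1 rises from 20.97 and 19.2 to 30.85 and 39.5, while the groups of Fgf7 overlap.

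Fgfr1 encodes the FGF receptor commonly found on mesenchymal cells and lies at chr8:25513654-25575718 on the plus strand. It measured 20.97 and 19.2 FPKM with scramble siRNA against 30.85 and 39.5 with circEsyt2 siRNA. Both circEsyt2 siRNA libraries were above both scramble libraries, library 2 more so than library 1. The values rest on 521 and 781 reads against 1147 and 1220. Its mean rose 1.75-fold, with a log2 fold change of 0.77 (SE 0.16, 95% interval 0.38 to 1.16, limma adjusted p = 0.0336). The call was also lost without circEsyt2 siRNA library 2, where the log2 fold change was 0.60 (adjusted p = 0.106), and with eBayes without a trend (adjusted p = 0.0889). Fgfr2, at chr7:130162451-133123350 on the minus strand, was the lowest of the 4 receptors. It measured 2.39 and 2.82 FPKM with scramble siRNA against 2.03 and 1.30 with circEsyt2 siRNA, on 42 to 120 reads. Its groups did not overlap, but the log2 fold change of -0.45 (95% interval -1.15 to 0.25) did not pass the test (limma adjusted p = 0.342). The Fgfr2 gene model shares 314 bp, or 3.04%, of its exon sequence with Ctbp2 on the same strand, which measured 16.5 to 18.7 FPKM over the 4 libraries, and how many Fgfr2 reads lie there was not tested. The Fgfr2 row does not separate the splice forms that bind different FGFs.

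The order of the receptors therefore differed between the groups. With scramble siRNA Pdgfrb came first, at 2.67 and 2.32 times Fgfr1, and Fgfr1 and Pdgfra stood level, at Fgfr1 to Pdgfra ratios of 1.02 and 0.991. With circEsyt2 siRNA Fgfr1 came first, at 1.35 and 1.59 times Pdgfrb, and at 4.41 and 5.23 times Pdgfra. As a share of the summed FPKM of the 4 receptors, Fgfr1 made up 21.01% and 22.4% with scramble siRNA against 49.2% and 53.9% with circEsyt2 siRNA. The Fgfr1 to Fgfr2 ratio was 8.79 and 6.81 against 15.2 and 30.4. An exact two-sided permutation test of each ratio gave p = 0.333, the smallest that 2 against 2 libraries allow. These are mRNA levels and not receptor protein.

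**Figure D2:**
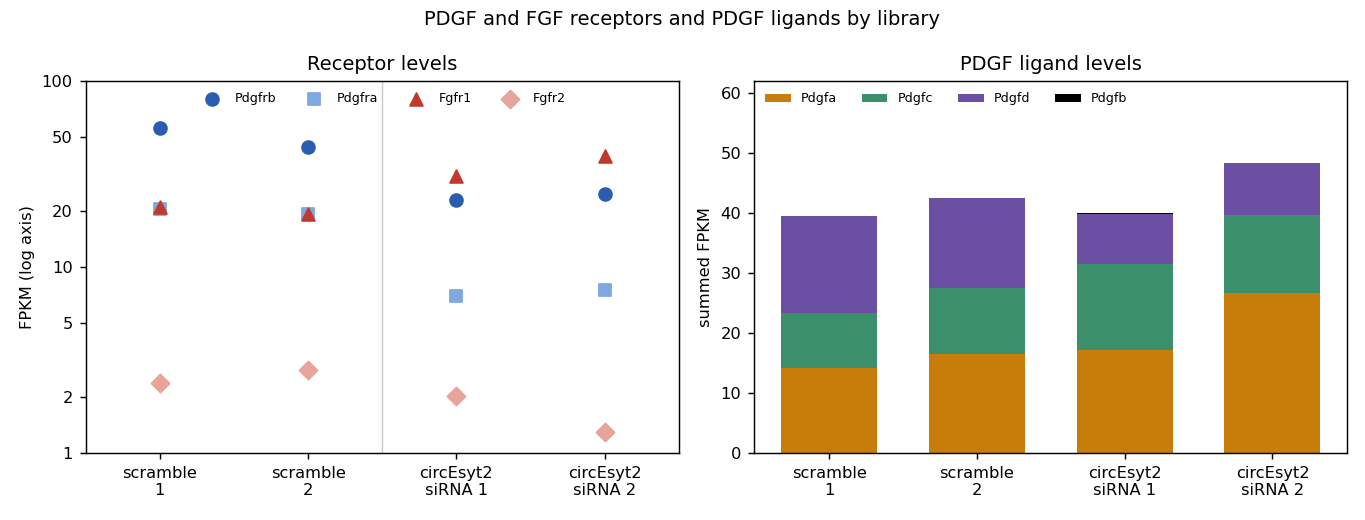
Left, FPKM (log axis) of the 4 receptors in each library; right, stacked FPKM (linear axis) of the PDGF ligands in each library. Pdgfrb is the highest receptor in both scramble libraries and Fgfr1 in both circEsyt2 siRNA libraries, and the Pdgfd segment shrinks from 16.3 and 15.0 to 8.25 and 8.72.

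Among the PDGF ligands, Pdgfd was lower with circEsyt2 siRNA. Pdgfd lies at chr9:6168584-6378850 on the plus strand and encodes a chain that is secreted in latent form and acts on PDGFR-beta once cleaved. It measured 16.3 and 15.0 FPKM with scramble siRNA against 8.25 and 8.72 with circEsyt2 siRNA, on 129 and 195 against 98 and 86 reads. The groups were well apart and the replicates close. Its mean was 1.84-fold lower, with a log2 fold change of -0.81 (SE 0.14, 95% interval -1.16 to -0.46, limma adjusted p = 0.0220). The call was lost when any 1 library was left out, with adjusted p from 0.0583 to 0.225 and log2 fold changes from -0.86 to -0.76, and with eBayes without a trend (adjusted p = 0.0569).

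Pdgfa, the chain that signals through PDGFR-alpha, measured 14.3 and 16.5 FPKM with scramble siRNA against 17.3 and 26.8 with circEsyt2 siRNA. The groups did not overlap, but circEsyt2 siRNA library 1 lay close to the scramble libraries and library 2 well above them. The log2 fold change was 0.46 (95% interval -0.09 to 1.013, limma adjusted p = 0.227), and it was 0.16 without circEsyt2 siRNA library 2 and 0.76 without library 1. Antisense transcript 6330403L08Rik covers 26.1% of the exon sequence of Pdgfa, so without a known strand setting reads of the pair cannot be told apart. Pdgfc, another latent chain that acts on PDGFR-alpha, measured 9.06 and 10.98 FPKM with scramble siRNA against 14.2 and 12.9 with circEsyt2 siRNA. Its groups did not overlap either, and its log2 fold change of 0.41 (95% interval 0.01 to 0.80) did not pass the adjusted test (limma adjusted p = 0.158). Pdgfb, which encodes the B chain, was listed at 0 in both scramble libraries and in circEsyt2 siRNA library 2. It had 4 reads in circEsyt2 siRNA library 1 (0.255 FPKM). With reads taken as independent, a count of 0 allows up to 3 reads. That is 0.287 and 0.175 FPKM in the scramble libraries and 0.231 in circEsyt2 siRNA library 2. If both reads of a pair were counted, these bounds would be higher. No difference in Pdgfb was detectable at this depth.

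The summed FPKM of the 4 PDGF ligands was 39.6 and 42.5 with scramble siRNA against 40.04 and 48.4 with circEsyt2 siRNA, and these sums overlapped between the groups. Pdgfd made up 41.1% and 35.3% of that sum with scramble siRNA against 20.6% and 18.0% with circEsyt2 siRNA. Pdgfa made up 36.1% and 38.8% against 43.2% and 55.3%. The Pdgfa to Pdgfd ratio was 0.878 and 1.10 with scramble siRNA against 2.09 and 3.07 with circEsyt2 siRNA. Its exact permutation p = 0.333 is the smallest that 2 against 2 libraries allow, so the test cannot decide whether the ratio differed.

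Fgf7, also known as keratinocyte growth factor, was the most abundant of the 10 mRNAs in every library. It measured 155 and 172 FPKM with scramble siRNA against 169 and 181 with circEsyt2 siRNA, ranking between 210 and 245 among all 22488 genes. The groups overlapped, and the log2 fold change was 0.10 (95% interval -0.16 to 0.36, limma adjusted p = 0.565). Quantile normalization gave -0.01. Fgf2, basic FGF, measured 6.86 and 10.49 FPKM with scramble siRNA against 5.40 and 6.70 with circEsyt2 siRNA. Scramble library 1 lay just above circEsyt2 siRNA library 2, and the scramble replicates differed from each other by more than the groups' nearest values did. The log2 fold change of Fgf2 was -0.44 (95% interval -1.02 to 0.14, limma adjusted p = 0.268), moving from -0.16 without scramble library 2 to -0.71 without scramble library 1. Nudt6 overlaps 9.44% of the exon sequence of Fgf2 on the opposite strand, and it was listed at 0 to 0.950 FPKM over the 4 libraries. Of the 9 tested members, 3 lay higher in both circEsyt2 siRNA libraries than in both scramble libraries, against 29.7% of all tested genes, and 5 lay lower in both, against 31.1%. Groups that did not overlap in either direction were seen in 8 of the 9 and in 60.7% of all tested genes.

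**Figure D3:**
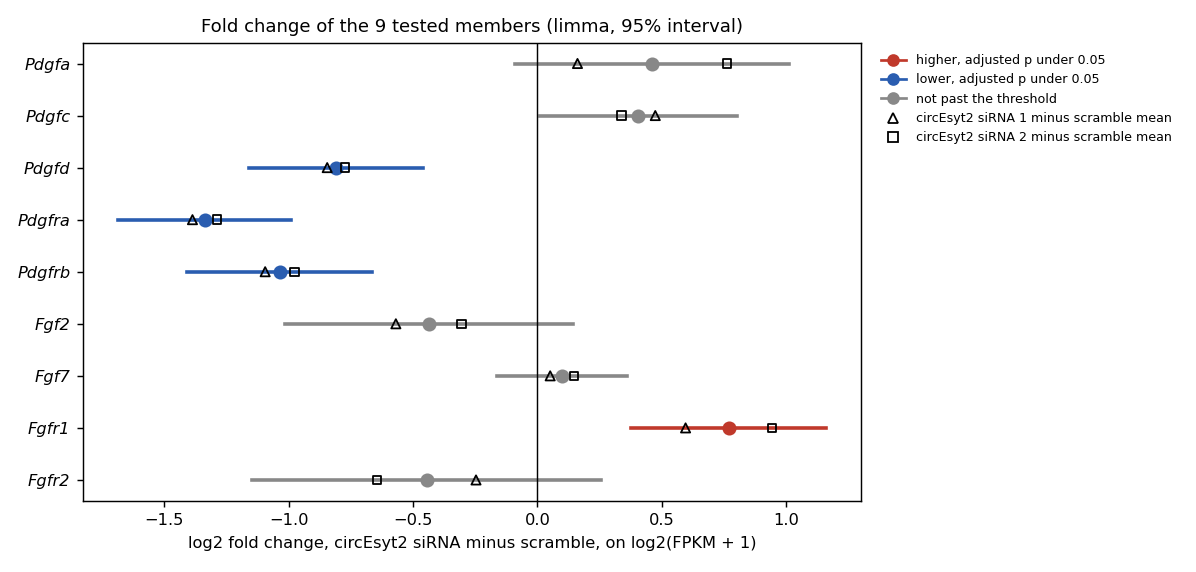
Log2 fold change (horizontal axis, circEsyt2 siRNA minus scramble, on log2(FPKM + 1)) of the 9 tested genes with its 95% limma interval, red for higher and blue for lower at an adjusted p under 0.05. Triangles and squares show circEsyt2 siRNA libraries 1 and 2 against the scramble mean, which lie close for Pdgfra (-1.39 and -1.29) and apart for Pdgfa (0.16 and 0.76).

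Within the scramble libraries, levels fell in the order Fgf7, Pdgfrb, then Fgfr1 with Pdgfra, Pdgfd with Pdgfa, then Pdgfc, Fgf2, Fgfr2 and Pdgfb. Fgfr1 and Pdgfra changed places between the scramble libraries, as did Pdgfd and Pdgfa, so these neighbours do not differ beyond their spread, and Pdgfc and Fgf2 were close in scramble library 2 (10.98 and 10.49 FPKM). With circEsyt2 siRNA Fgf7 was followed by Fgfr1, then Pdgfrb with Pdgfa, which changed places between the libraries, then Pdgfc, Pdgfd, Pdgfra, Fgf2 and Fgfr2. Pdgfra thus stood at place 4 and 3 of the 10 with scramble siRNA and at place 7 in both circEsyt2 siRNA libraries. The genes whose log2 levels over the 4 libraries, taken from the scramble mean, lay nearest by Euclidean distance were Nek9 (0.0435) and Ptk2b (0.0583) for Pdgfra, and Slfn8 (0.0499) and Sec24d (0.0516) for Pdgfrb. For Pdgfd they were Gtf3c1 (0.0573) and Synpo2 (0.0626), and for Fgfr1 they were Spsb1 (0.0348) and Stk4 (0.0645).

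The rest of the pathway was taken from 7 lists with 160 genes, of which 125 were tested. With circEsyt2 siRNA 14 of them were higher and 15 lower, with a median log2 fold change of -0.09, where 5.47% of all tested genes were higher and 7.26% lower. No list was tested against that background, to which each count that follows is to be compared. Of the 20 other FGF ligands 4 were tested, 2 were lower and 0 higher. Fgf10, a close relative of Fgf7 that also signals to epithelial FGFR2, measured 79.3 and 81.3 FPKM with scramble siRNA against 47.6 and 52.0 with circEsyt2 siRNA (log2 fold change -0.68, SE 0.11, limma adjusted p = 0.0175). Fgf10 and Fgf7 were thus the abundant FGF ligand mRNAs in these libraries. The call of Fgf10 was lost in 4 of the 14 alternatives. Fgf18 measured 5.36 and 2.86 against 0.895 and 0.539 FPKM, on 16 and 14 against 4 and 2 reads, and its call (limma adjusted p = 0.0426) was lost in 7 of the 14 alternatives, voom on recovered reads among them. Of the other FGF receptors Fgfrl1, a receptor without a kinase domain, was tested and did not pass, at 9.14 and 6.99 against 7.06 and 5.06 FPKM, and Fgfr3 and Fgfr4 were under the minimum level.

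Genes for ligand binding, coreceptors and processing had 6 of 27 tested members lower and 1 higher, with a median log2 fold change of -0.33. The number lower was 11 with voom, 10 at a mean FPKM of at least 5, 2 with eBayes without a trend and 0 to 4 without 1 library, and the number higher was 0 to 2 over the alternatives. Sdc4, a heparan sulphate carrier that presents FGFs, measured 91.1 and 95.0 FPKM with scramble siRNA against 51.5 and 46.7 with circEsyt2 siRNA (limma adjusted p = 0.00836). Plau, the urokinase gene, whose product can cleave latent PDGF-D, measured 15.9 and 14.2 against 4.71 and 2.84 FPKM (limma adjusted p = 0.0101). The other members called lower were Nrp2, Gpc4, Ext2 and Sulf2, and the member called higher was Flrt2. Plat, the gene of tissue plasminogen activator, which can cleave latent PDGF-C, measured 9.30 and 8.45 against 5.45 and 5.48 FPKM and did not pass the test (limma adjusted p = 0.0604), a gene chosen after its values were seen. Gpc4, Ext2 and Sulf2 encode a heparan sulphate carrier, an enzyme that builds the chains and one that trims their sulphates.

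Of the other receptor tyrosine kinases 1 of 20 tested was higher, Kdr, and 0 were lower, a share higher near that of all tested genes (5.47%). The number lower was 2 with voom and 1 in each of 2 other alternatives. Kdr, a receptor for vascular endothelial growth factor, measured 1.23 and 1.26 FPKM with scramble siRNA against 4.32 and 4.00 with circEsyt2 siRNA (limma adjusted p = 0.0303), on 28 and 47 against 147 and 113 reads. Its call was lost in 6 of the 14 alternatives, including the fit with no filter on low values and each fit without 1 library. Ryk, which had the next smallest p, measured 55.7 and 60.4 against 34.4 and 44.4 FPKM (adjusted p = 0.0681). Kdr lies on the chromosome of Pdgfra, and of the 6 tested genes of a list of its neighbours there 2 were higher, Kdr and Chic2, and 0 lower. Chic2 measured 6.20 and 5.66 against 14.9 and 11.9 FPKM (limma adjusted p = 0.0186), and its call was lost in 5 of the 14 alternatives. Pdgfra differed in direction from these 2 neighbours, and the other 4 tested neighbours did not pass the test. Their log2 fold changes were 0.10 for Fip1l1, 0.17 for Srd5a3, -0.05 for Tmem165 and -0.44 for Clock.

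Downstream, the adaptors and signal transducers had 5 of 35 tested members higher and 1 lower, with a median log2 fold change of 0.02. The number higher was 0 with eBayes without a trend and without circEsyt2 siRNA library 2, and 7 with voom. Fyn, a Src family kinase, measured 21.04 and 20.7 FPKM with scramble siRNA against 36.3 and 41.1 with circEsyt2 siRNA (limma adjusted p = 0.0137). Map2k1, the kinase that activates ERK, measured 65.04 and 73.4 against 104 and 116 FPKM (limma adjusted p = 0.0228). Src and Pik3ca were also among the higher members, and the lower member was Pik3r1, a regulatory subunit of the kinase whose catalytic subunit Pik3ca encodes. The calls of Pik3ca and Pik3r1 were each lost in 7 of the 14 alternatives. Receptor ubiquitin ligases, phosphatases and Ras inactivators had 3 of 16 tested members higher (Cblb, Ptpn12 and Rasa1) and 3 lower (Socs3, Grb14 and Errfi1). The number higher was 5 with voom and 0 without circEsyt2 siRNA library 2. Socs3, an inhibitor of cytokine receptors, measured 13.1 and 13.9 against 4.23 and 4.65 FPKM (limma adjusted p = 0.00627). Grb14, an adaptor that binds receptor tyrosine kinases including insulin and FGF receptors, measured 11.6 and 10.99 against 1.70 and 2.71 FPKM (limma adjusted p = 0.00639).

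MAP kinase feedback and target genes, many of which PDGF and FGF signals induce, moved in both directions. Of 22 tested, 4 were higher (Dusp4, Myc, Dusp5 and Spry2) and 3 lower (Ccnd1, Dusp7 and Spry1), with a median log2 fold change of 0.14. The number higher was 1 with eBayes without a trend and without circEsyt2 siRNA library 2. Ccnd1, the cyclin D1 gene, measured 84.6 and 76.4 FPKM with scramble siRNA against 23.6 and 23.2 with circEsyt2 siRNA (limma adjusted p = 0.00281). Dusp4, a MAP kinase phosphatase gene, measured 8.27 and 9.31 against 28.9 and 30.2 FPKM (limma adjusted p = 0.00407). Spry1 and Spry2, Sprouty inhibitors of these receptors' signals, went in opposite directions, at 6.56 and 5.93 against 2.65 and 2.53 FPKM and at 50.1 and 57.3 against 77.1 and 79.1 FPKM. Etv4 and Etv5, transcription factor genes that FGF signals are known to induce, measured 4.74 to 6.93 and 6.33 to 8.11 FPKM over the 4 libraries and did not pass the test (limma adjusted p = 0.712 and 0.650). The Sprouty and Etv genes were chosen here after their values were seen, and the calls of Spry1 and Spry2 were lost in 6 and 7 of the 14 alternatives.

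**Figure D4:**
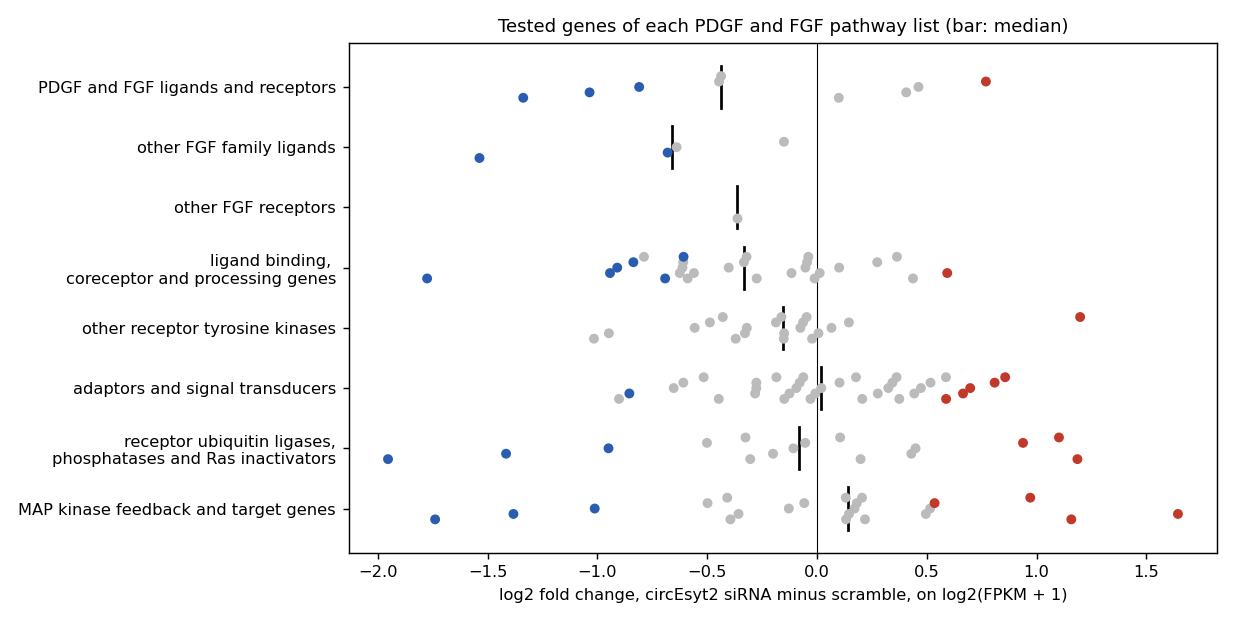
Log2 fold change (horizontal axis, circEsyt2 siRNA minus scramble) of every tested gene of the member list and of the 7 pathway lists, red for higher and blue for lower at an adjusted p under 0.05, grey otherwise, with a bar at each list's median. Called genes lie on both sides in the feedback list (4 higher, 3 lower), and the list of binding and processing genes has 6 lower and 1 higher, numbers that other fits moved.

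Across the 14 alternative fits the sign of each tested member was unchanged except for Fgf7 with quantile normalization. In 8 of the 14 fits all 4 calls of members were kept, and 0 of the 5 members that did not pass were called in any of the 14.

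**Figure D5:**
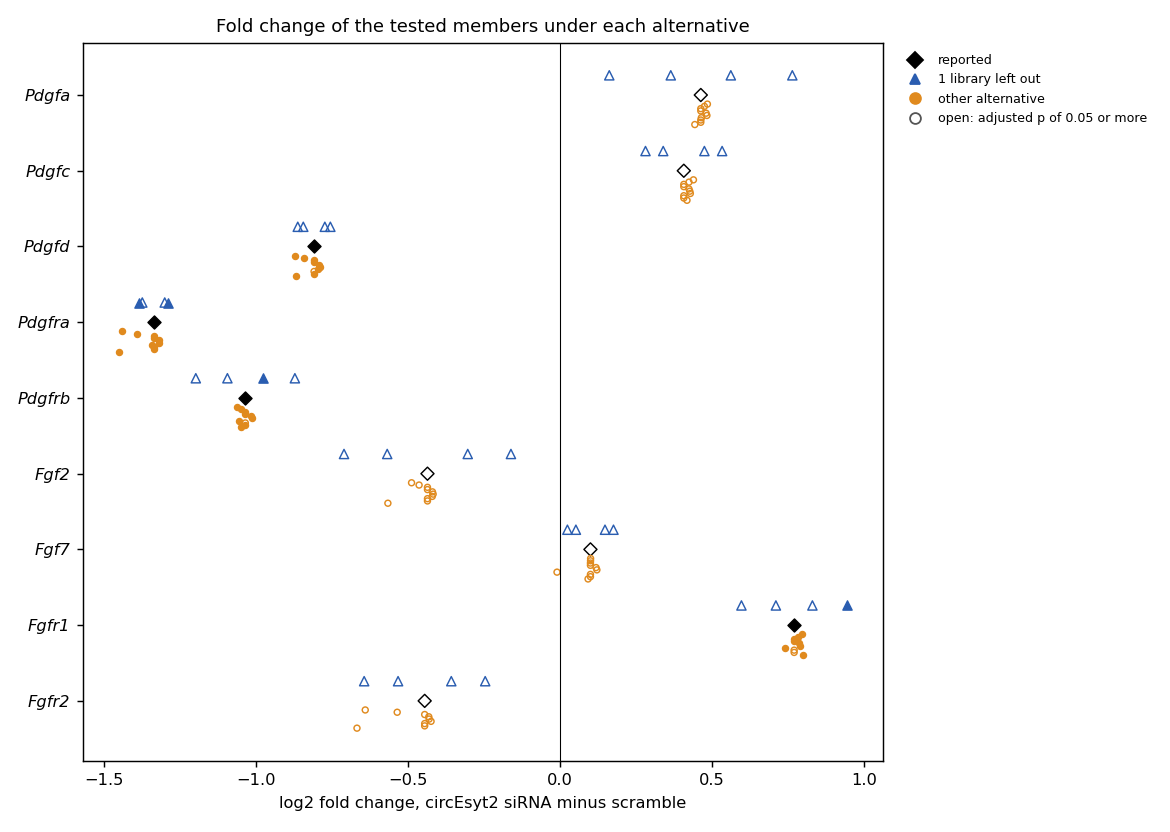
Log2 fold change (horizontal axis, circEsyt2 siRNA minus scramble) of the 9 tested genes as reported (diamonds), with 1 library left out (triangles) and under the other alternatives (circles), filled where the adjusted p is under 0.05. The points of Pdgfra run from -1.45 to -1.29 and those of Fgfr1 from 0.60 to 0.94, and the Pdgfd triangles are all open.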

How the data were processed

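The authors deposited 1 file per library with FPKM values per gene symbol and Entrez identifier. Trimmomatic, HISAT2, featureCounts, GRCm38 and mm10 are named in the submitters' processing notes. For tool versions, settings (strand included) and annotation, the entry is: not given in the sources used here. GENCODE M21 exon lengths made the values of 96.5% of the 20745 genes above 0 whole read numbers within 0.001, which gave totals of 2516428 and 4116791 reads assigned to genes for scramble and 3765056 and 3127224 for circEsyt2 siRNA. Genes with 2 reads were 2.34 to 4.42 times as many as genes with 1, an excess of the kind that counting both reads of a pair would give. Whether reads or fragments were counted is not stated. The numbers are called reads here and cover counting error only. Gene coordinates are from M21.

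Log2(FPKM + 1) values were fitted by limma 3.58.1 under R 4.3.3, with lmFit and with eBayes using its trend option. Tests were two-sided, covered genes whose mean FPKM reached 1 and were Benjamini-Hochberg adjusted over all of these, with a threshold of 0.05. The fit was tested on simulated data with known fold changes. The replicates of a group correlated at r = 0.972 and 0.931 across genes and differed by more than counting noise (chi-square per degree of freedom 3.74 and 9.24, against at most 2 from counting read pairs), so none was taken for a library deposited under 2 labels. This does not show that they were separate cultures.

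The members and lists were chosen with earlier results of these data known. Named genes were the members, the 2 tested genes of smallest p in each pathway list and in the smooth muscle, fibroblast and hepatocyte lists, called genes of the other FGF and neighbour lists, and the 2 genes most like each called member. The other marker lists are given by sums and counts. Acta2, Vtn, Cldn5, Plat and the neighbours of Pdgfra that did not pass were chosen after their values were seen. Other called list genes are named to account for the counts, except 1 that is not reported here. Alternatives changed the pseudocount, filter, scaling, prior, block or test, or left out 1 library. No protein sequences were used here.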

Additional observations from a re-analysis of the deposited data

How the results depend on the processing

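Of the 14 alternatives, the pseudocounts, filters, scalings and voom on recovered reads kept all 4 calls of members. With quantile normalization Fgf7 changed sign, at -0.0106. With eBayes without a trend 203 genes were higher and 374 lower (617 and 820 as reported), pathway genes of the 7 lists 4 higher and 7 lower (14 and 15 as reported), and the calls of Pdgfd (-0.81), Pdgfrb (-1.04) and Fgfr1 (0.77) were lost at the same fold changes. With the replicate number as a block, which the labels do not tie to a shared culture or day, 404 genes were higher and 604 lower and Fgfr1 (0.77, adjusted p = 0.0540) lost its call. Same-numbered libraries deviated with r = -0.05 across genes. Voom called 23 pathway genes lower. Leaving out 1 library gave 0 to 405 genes higher, 0 to 622 lower, 0 to 10 pathway genes higher and 0 to 11 lower. It gave fold changes of -0.86 to -0.76 for Pdgfd, -1.39 to -1.29 for Pdgfra, -1.20 to -0.87 for Pdgfrb and 0.60 to 0.94 for Fgfr1, the lone library of a group being assumed to vary like the other group. Without scramble replicate 1 or 2 limma called 0 genes, with 1959 and 2231 at an unadjusted p under 0.05. Pathway calls other than Dusp4, Ccnd1, Dusp7, Socs3, Grb14 and Plau were also lost in at least 1 further fit. Depth limits Pdgfb (0 to 4 reads) and Fgf18 (2 to 16 reads). Fgfr2 has no value at a mean FPKM of at least 5.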

Other observations

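The excess of even over odd read numbers differed between the groups. In the scramble libraries 714 and 673 genes had 1 read and 1779 and 1577 had 2, ratios of 2.49 and 2.34. In the circEsyt2 siRNA libraries 424 and 424 genes had 1 read and 1467 and 1873 had 2, ratios of 3.46 and 4.42. Among genes with 1 to 10 reads, even numbers made up 68.2% and 64.0% with scramble siRNA against 74.9% and 76.98% with circEsyt2 siRNA. A read number of a low gene such as Pdgfb (4 reads) or Fgf18 (2 to 16 reads) may therefore stand for fewer fragments. Its part in the values of the PDGF and FGF genes was not tested.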
